A study of Mus musculus with 12 samples.

Results

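DNA repair and recombination genes are described here across 4 groups of mouse cells from a study of reprogramming by Oct4, a transcription factor of pluripotent cells, together with the cytosine dioxygenase Tet1. The genes were chosen by symbol, not by value: a probe set belonged to the group if the platform annotation gave it a single symbol of a repair gene family (Fanc, Rad, Xrcc, Brca, Msh, Ercc and Parp among them), or of a short list of single genes (among them Atm, Atr, Chek1, Chek2, Blm, Exo1, Palb2 and Ung). The rule found 64 probe sets, 1 for each of 64 genes, among 10360 probe sets that named 9539 genes. Every probe set of the table had a range of at least 0.51 (log2) over the arrays, so these are the repair genes of a table of varying genes. A search by symbol also brought in 4 genes named alike but assigned here to none of the repair roles, an antisense transcript among them. It also brought in 7 PARP genes outside strand-break repair. Both sets were kept and are described apart.

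RNA was measured on 12 Affymetrix arrays, 3 per group, as log2 intensities. The fibroblasts were at passage 3, and their 3 arrays were labelled OG2-GFP/Rosa26-M2rtTA, OG2-GFP/Rosa26-M3rtTA and OG2-GFP/Rosa26-M4rtTA, names that combine a GFP reporter with a doxycycline-responsive transactivator at the Rosa26 locus. The labels do not say whether M3rtTA and M4rtTA are alleles other than M2rtTA or slips of numbering, so whether all 3 fibroblast arrays share the background of the day-1 and iPS cells is not settled. The day-1 cells were passage 3 fibroblasts of OT-iPSC mice, that is mice from iPS cells induced by Oct4 and Tet1, on the OG2-GFP/Rosa26-M2rtTA background. They had spent 1 day in ES medium plus doxycycline after growth in feeder medium. The iPS cells, induced by Oct4 and Tet1 on the same background, were at passage 10. The R1 ES cells, of strain 129, were at passage 20. iPS and ES cells were kept on mitomycin C treated embryonic fibroblasts in ES medium with serum and LIF. The iPS arrays are labelled as 1 line. Nothing in the labels tells whether arrays of 1 group stem from different cultures, and p-values therefore reflect the spread of these arrays, which may be technical. Origin, medium, doxycycline and time all differ between day-1 cells and fibroblasts, and strain and passage between iPS and ES cells. Passage and culture conditions also differ between iPS or ES cells and the fibroblasts or day-1 cells, and strain sets the ES cells apart. Within each pair these cannot be told apart. Rise, fall, drop and step below compare groups of arrays. ES cells are of another strain and day-1 cells come from mice made from iPS cells, so the groups are not 1 time course.

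Cells repair broken DNA by routes that differ in the lesion they read and in the phase of the cell cycle in which they act. Homologous recombination copies an intact sister molecule and so works after replication, with the Fanconi anaemia proteins releasing strands that are crosslinked together, while end joining ligates broken ends at any time. Mismatch, base excision and nucleotide excision repair replace single wrong or damaged bases or short stretches, checkpoint kinases hold the cycle while repair proceeds, and translesion polymerases copy past what was not repaired. Pluripotent cells divide fast, with short gap phases, and are known for high activity of recombination and mismatch repair.

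The arrays of a group were alike, with correlations of 0.988 to 0.997 within groups over all genes. The 9 pluripotency markers measured were all called higher than in fibroblasts in both iPS and ES cells, and at day 1 Pou5f1 (Oct4) was the only one of them called. Between iPS and ES cells 1 of the 9, Zfp42, was called, lower in iPS cells (-2.77). The mean log2 level of 17 fibroblast or feeder markers was 11.02 to 11.23 in fibroblasts, 10.82 to 10.90 in day-1 cells, 8.67 to 8.78 in iPS cells and 7.65 to 8.01 in ES cells. Between iPS and ES cells 7 of the 17 were called higher in iPS cells and 1, Dcn, lower (-2.08), so the markers did not go one way, and their part in the results was not tested. The mean log2 level of 8 macrophage markers was 7.40 to 7.70 in fibroblasts, 7.18 to 7.28 in day-1 cells, 6.31 to 6.42 in iPS cells and 6.26 to 6.37 in ES cells. The log2 of their summed intensities was 10.99 to 11.32, 10.59 to 10.73, 10.73 to 10.84 and 10.66 to 10.92 in the same groups. By that measure the markers were not lower in iPS or ES cells than in day-1 cells. The sum includes Laptm5, with means of 8.18 at day 1, 10.19 in iPS cells and 10.11 in ES cells. Gene by gene, 4 of the 8 were called lower in iPS than in day-1 cells, and 1, Laptm5, higher. Against fibroblasts Adgre1, Cd14, Lyz2 and Csf1r were called lower in iPS cells, and Laptm5 was called higher (2.61). At day 1 C1qb was called higher than in fibroblasts (1.48), and 3 of the 8 lower. The part of these markers in the results was not tested either. In bulk RNA fewer cells of a type and less RNA per cell cannot be told apart.

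Most of the repair genes were higher in the pluripotent cells, and a PARP subset was lower. A gene was called where limma's adjusted p was under 0.05 and the difference at least 1 on the log2 scale, which is 2-fold. In iPS cells 38 of the 64 genes were called higher than in fibroblasts, beside 21.8% of all genes tested, and 8 were called lower, beside 29.6%. In ES cells 39 were called higher, beside 23.4%, and 7 lower, beside 32.1%. Without the PARP family 36 of 54 genes were called higher and 1 lower in iPS cells, and 37 and 0 in ES cells. The median difference of the 64 genes was 1.25 in iPS and 1.81 in ES cells, and over all genes it was -0.35 in both. These comparisons share the fibroblast arrays, so their values are given side by side: 37 genes were called higher in both, Xrcc1 in iPS cells alone, and Ercc6l2 and Rad9b in ES cells alone. Whether those 3 differ between the pluripotent groups is a separate comparison, given further on.

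At day 1 fewer genes were called. Of the 64 genes 6 were called higher than in fibroblasts, beside 3.46% of all genes, and 3 were called lower, beside 4.33%. The 95% interval of the difference lay within 2-fold for 47 of the 64 (73.4%), beside 86.2% of all genes. In 33 genes the 3 day-1 arrays all lay above the fibroblast arrays and below the iPS arrays, beside 18.3% of all genes. From day-1 to iPS cells 28 genes were called higher, beside 17.6%, and 7 lower, beside 26.6%. Of these calls 80% were higher, beside 39.8% over all genes, and after quantile normalization 90.5%, beside 51.2%.

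All 6 iPS and ES arrays lay above all 6 fibroblast and day-1 arrays for 43 of the 64 genes, beside 35.4% of all genes. They lay below them for 11, beside 44.9%.

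**Figure D1:**
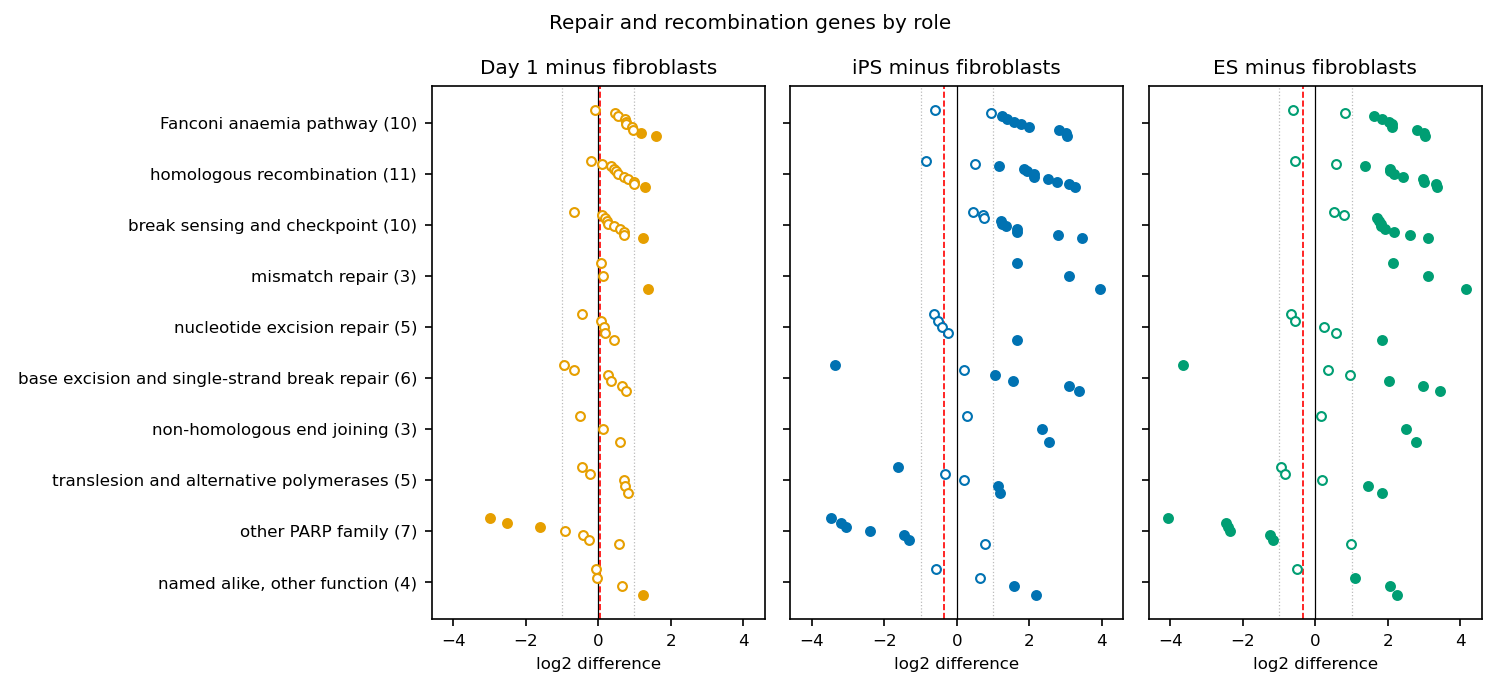
Difference from fibroblasts (log2 scale, horizontal axis) of each repair gene, grouped by role, in day-1, iPS and ES cells; each point is the mean of 3 arrays minus the fibroblast mean, filled where called, dotted lines mark the 2-fold minimum and the red dashed line is the median of all genes. The recombination, Fanconi and checkpoint genes lie mostly to the right in iPS and ES cells, and the other PARP genes mostly to the left.

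Of 10 Fanconi anaemia genes 8 were called higher in iPS and 8 in ES cells, and none lower. Beside this and each role count below stand the shares over all genes. They were 21.8% called higher and 29.6% lower in iPS cells, and 23.4% and 32.1% in ES cells. Fancd2 and Fanci encode the pair of proteins that is clamped onto DNA when a crosslink is met. Fancd2 read 6.26, 5.74 and 6.26 in fibroblasts, 7.24, 7.31 and 7.25 in day-1 cells, 9.04, 9.03 and 9.22 in iPS cells and 9.06, 8.98 and 9.18 in ES cells. It thus rose in steps, with no overlap from fibroblasts to day-1 cells or from day-1 to iPS cells, and iPS and ES arrays interleaved. The difference from fibroblasts was 1.18 at day 1 (SE 0.12, adjusted p = 4.3e-06), 3.01 in iPS cells (8.06-fold, SE 0.12, adjusted p = 5.0e-11) and 2.99 in ES cells (7.93-fold). Fanci had the same order of groups, with 6.59, 6.26 and 6.39 in fibroblasts, 7.31, 7.42 and 7.36 at day 1, 9.43, 9.43 and 9.48 in iPS cells and 9.23, 9.19 and 9.24 in ES cells. Its rise was 8.19-fold in iPS and 6.99-fold in ES cells, and the day-1 difference of 0.95 fell short of the fold minimum.

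The core complex of the pathway tags that pair with ubiquitin, and Fancl is its ligase. Fancm, the translocase that anchors the complex to stalled forks, read 6.20, 5.95 and 6.21 in fibroblasts, 6.59, 6.68 and 6.72 at day 1, 9.01, 8.86 and 8.98 in iPS cells and 9.06, 9.38 and 9.05 in ES cells. Its rise was 7.12-fold in iPS cells and 8.24-fold in ES cells, and the day-1 difference was 0.54 (adjusted p = 5.5e-04), under the minimum. Fancb, a core subunit, followed another course: 6.15, 5.75 and 6.13 in fibroblasts, 7.62, 7.67 and 7.55 at day 1, 7.78, 7.65 and 7.87 in iPS cells and 8.06, 8.16 and 8.13 in ES cells. At day 1 it was 3.03-fold above fibroblasts (adjusted p = 5.3e-08). Its day-1 and iPS arrays overlapped, with a difference of 0.16 between them (adjusted p = 0.15). Palb2, which joins Brca1 to Brca2 at breaks, rose 2.62-fold in iPS cells and 4.34-fold in ES cells. Its arrays read 5.69, 5.18 and 5.44 in fibroblasts, 5.81, 6.07 and 5.82 at day 1, 7.01, 6.64 and 6.84 in iPS cells and 7.36, 7.62 and 7.68 in ES cells, so that the pluripotent groups did not overlap. Fanca, Fancl and the helicase gene Brip1 also rose in both, between 2.38-fold and 4.06-fold. The core subunits Fancc and Fancf were the exceptions. Fancc was 0.95 above fibroblasts in iPS cells and 0.81 in ES cells, under the minimum. Fancf went the other way, from 8.60, 8.46 and 8.56 in fibroblasts to 9.38, 9.38 and 9.18 at day 1 and then down to 7.92, 7.92 and 7.97 in iPS cells and 7.98, 7.76 and 8.04 in ES cells. Between day-1 and iPS cells Fancf fell 2.60-fold (adjusted p = 4.0e-09), the one Fanconi gene called lower in any comparison.

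Of 11 homologous recombination genes 9 were called higher in iPS cells and the same number in ES cells. Brca1, the tumour suppressor that promotes resection of broken ends, read 6.40, 6.09 and 6.43 in fibroblasts, 6.96, 7.03 and 7.10 at day 1, 9.59, 9.49 and 9.62 in iPS cells and 9.67, 9.56 and 9.78 in ES cells. All 6 pluripotent arrays lay more than 2 units above the day-1 arrays, and the iPS and ES arrays overlapped. The rise over fibroblasts was 9.57-fold in iPS cells (3.26, SE 0.10, adjusted p = 3.4e-12) and 10.3-fold in ES cells, beside a difference of 0.72 at day 1. Brca2, a tumour suppressor required for strand exchange, read 6.87, 6.56 and 6.66 in fibroblasts, 7.12, 7.16 and 7.27 at day 1, 8.72, 8.71 and 9.06 in iPS cells and 9.55, 9.60 and 9.82 in ES cells. It rose 4.39-fold in iPS cells and 7.78-fold in ES cells, and unlike Brca1 its iPS arrays were all below its ES arrays.

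Rad54l, a motor that helps the strand find and enter its partner, was among the most even members. It read 6.70, 6.58 and 6.74 in fibroblasts, 7.78, 7.63 and 7.61 at day 1, 9.78, 9.77 and 9.79 in iPS cells and 9.72, 9.59 and 9.73 in ES cells. The rise was 8.59-fold in iPS cells and 8.02-fold in ES cells, and the day-1 difference of 1.00 was just under the minimum before rounding. Blm, the helicase missing in Bloom syndrome that dissolves crossed strands, read 7.0, 6.65 and 6.95 in fibroblasts, 7.56, 7.69 and 7.81 at day 1, 9.62, 9.66 and 9.61 in iPS cells and 10.11, 10.16 and 10.32 in ES cells. It rose by 2.76 in iPS cells and 3.33 in ES cells on the log2 scale. Eme1, part of a nuclease that cuts crossed strands, was the recombination gene called at day 1, at 1.29 (2.44-fold, SE 0.11, adjusted p = 7.0e-07). Its arrays moved from 6.99, 6.54 and 6.68 in fibroblasts to 8.01, 8.08 and 7.98, and on to 8.90, 8.75 and 8.97 in iPS cells and 8.71, 8.75 and 8.94 in ES cells. Rad51c, a recombination mediator, was 0.98 higher at day 1, just short. Rad54b, Rad51b, Rad51c and Rad51ap1 all rose in iPS and ES cells, between 2.23-fold and 5.76-fold. Rad52, which in mammals serves a back-up annealing route, was the recombination gene with the opposite sign, at -0.86 in iPS and -0.57 in ES cells, and Xrcc3 was 0.50 and 0.56 higher; neither reached the minimum.

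**Figure D2:**
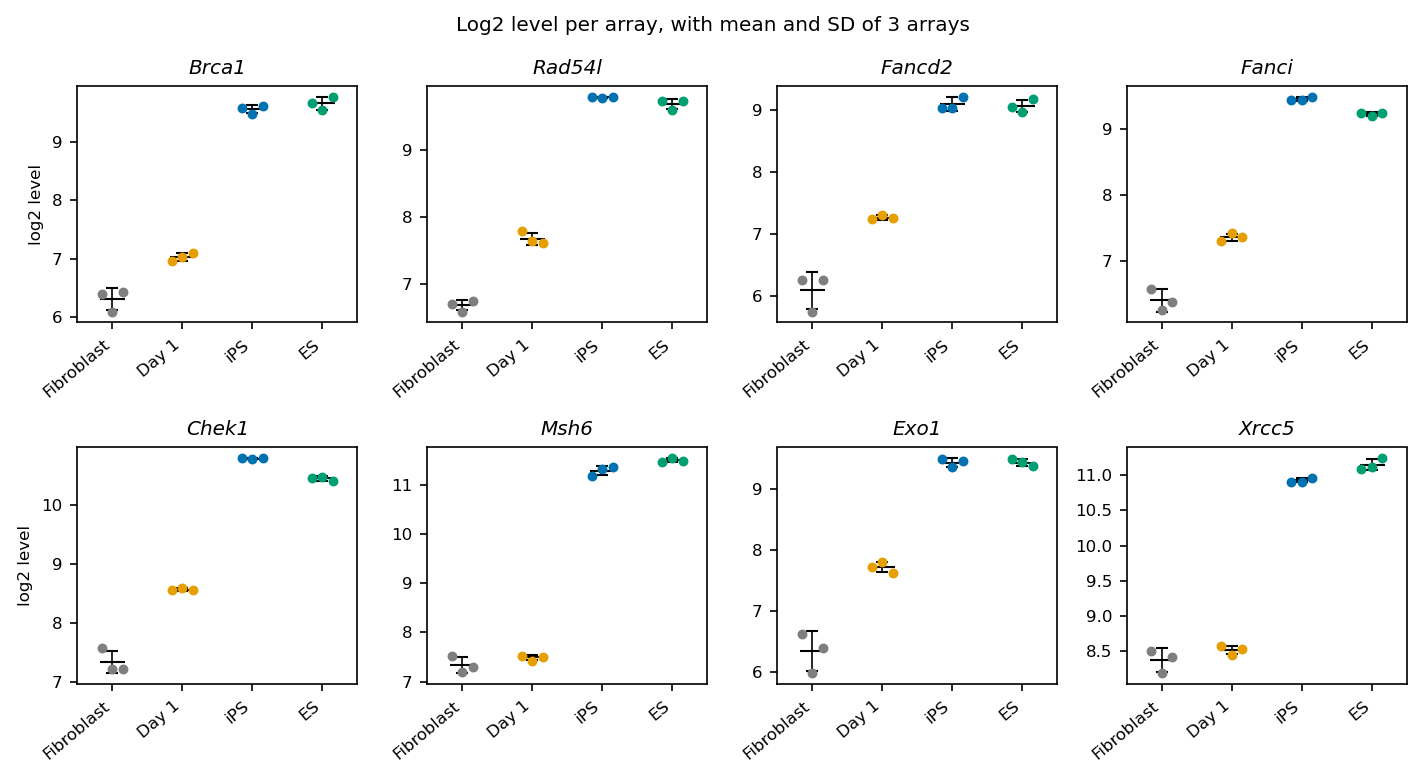
Log2 intensity (vertical axis, own scale in each panel) of 8 repair genes on the 12 arrays; points are arrays, and bars are the mean and SD of 3 arrays. Fancd2, Exo1 and Chek1 step up at day 1 and again in iPS cells, while Msh6 and Xrcc5 stay near the fibroblast level at day 1.

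Promoter sequence was looked at because many S phase and repair genes are known to share E2F sites, bound by factors that switch on replication genes, or CCAAT boxes, bound by NF-Y. RefSeq promoters (GRCm38.p6) were found for 51 of the 64 genes, and the 250 bases before the start were searched on both strands. The E2F-like words were TTTGGCGC, TTTCGCGC, TTTCCCGC and TTTGCCGC. They occurred in 4 genes (7.84% of 51), beside 2.16% of all 27025 genes with a promoter and 3.66% of the 7537 genes of the array table that had one. Those 4 genes are shown with the word in capitals, read 5′ to 3′ on the gene's strand, in a 100-base window of the stretch searched.

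Brca2, chr5:150522403-150522502, plus strand: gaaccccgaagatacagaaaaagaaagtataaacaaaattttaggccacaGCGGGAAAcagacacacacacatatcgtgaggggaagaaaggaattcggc

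Chek2, chr5:110839781-110839880, plus strand: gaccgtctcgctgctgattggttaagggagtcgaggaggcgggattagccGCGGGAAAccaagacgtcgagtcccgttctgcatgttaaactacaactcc

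Msh3, chr13:92355152-92355251, minus strand: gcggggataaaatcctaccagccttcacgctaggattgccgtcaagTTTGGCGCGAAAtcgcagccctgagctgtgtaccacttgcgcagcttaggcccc

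Xrcc6, chr15:82016269-82016368, plus strand: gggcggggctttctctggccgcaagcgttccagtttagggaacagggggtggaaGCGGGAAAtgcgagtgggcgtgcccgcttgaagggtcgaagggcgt

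In Brca2, Chek2 and Xrcc6 the word stands on the opposite strand, so its complement is read, and in Msh3 a pair of words, 1 on each strand, overlaps. All 4 genes were called higher in iPS and ES cells, as were 38 and 39 of the 64. None of them was called at day 1, when 6 of the 64 were called higher. No promoter was found for Fancd2, Exo1 and Ercc6l, which are among those 6. CCAAT was found in 23 of the 51 genes with a promoter (45.1%), beside 37.5% of all such genes and 40.6% of those in the table. Of the 19 Fanconi and recombination genes that had a promoter 12 held it (63.2%). Brca1 and Rad54l, whose values stand above, are shown with that box in capitals.

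Brca1, chr11:101551992-101552091, minus strand: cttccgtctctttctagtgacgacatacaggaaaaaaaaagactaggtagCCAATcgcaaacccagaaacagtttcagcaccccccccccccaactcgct

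Rad54l, chr4:116123691-116123790, minus strand: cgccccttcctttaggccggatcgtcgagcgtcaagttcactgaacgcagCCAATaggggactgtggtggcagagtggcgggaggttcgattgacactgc

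CHR-like words (TTTGAA or TTCGAA), an element of late cell cycle promoters, were found in 5 of the 51 (9.80%), beside 19.6% of all genes and 14.9% of those in the table. No word of one class overlapped a word of another. A word is a match of letters, and binding was not measured.

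Of 10 break sensing and checkpoint genes 7 were called higher in iPS cells and 8 in ES cells. Chek1, the kinase that restrains the cycle when replication stalls, read 7.57, 7.22 and 7.23 in fibroblasts, 8.56, 8.60 and 8.56 at day 1, 10.80, 10.78 and 10.80 in iPS cells and 10.47, 10.49 and 10.42 in ES cells. No pair of groups overlapped, and iPS cells were highest. It rose 2.35-fold at day 1 (adjusted p = 1.2e-07), 10.9-fold in iPS cells (adjusted p = 8.4e-13) and 8.68-fold in ES cells. Chek2, the kinase activated by double-strand breaks, read 7.16, 6.95 and 7.23 in fibroblasts, 7.36, 7.29 and 7.25 at day 1, 9.92, 9.86 and 9.94 in iPS cells and 9.65, 9.81 and 9.74 in ES cells. The day-1 difference was 0.19 (adjusted p = 0.059), and the rise was 6.95-fold in iPS cells and 6.17-fold in ES cells.

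Atm and Atr are the apical kinases that sense breaks and single strands. Atm read 7.50, 7.41 and 7.56 in fibroblasts, 7.49, 7.62 and 7.67 at day 1, 8.73, 8.56 and 8.90 in iPS cells and 9.28, 9.36 and 9.29 in ES cells. Atr read 7.13, 7.09 and 7.28 in fibroblasts, 7.45, 7.46 and 7.41 at day 1, 8.45, 8.22 and 8.52 in iPS cells and 8.93, 8.93 and 9.06 in ES cells. In both genes the ES arrays were above the iPS arrays, and the rise was 2.36-fold and 2.35-fold in iPS cells and 3.53-fold and 3.49-fold in ES cells. Mre11a, the nuclease of the break-binding complex, rose 3.13-fold in iPS cells and 3.75-fold in ES cells, from 8.19, 8.14 and 8.12 in fibroblasts and 8.69, 8.82 and 8.77 at day 1 to 9.81, 9.73 and 9.85 in iPS cells and 9.99, 10.12 and 10.06 in ES cells. Nbn, its partner, was 0.71 higher in iPS cells and 0.80 in ES cells, under the minimum. Of the clamp that recruits Atr and its loader, Rad1 and Rad17 rose in both, between 2.59-fold and 3.38-fold, and Rad9a did not reach the minimum, at 0.74 and 0.51. Rad9b, a paralog of Rad9a, read 6.53, 6.36 and 6.64 in fibroblasts, 5.75, 5.83 and 5.94 at day 1, 7.03, 6.90 and 6.91 in iPS cells and 8.66, 8.64 and 8.71 in ES cells. It rose 4.46-fold in ES cells (adjusted p = 2.1e-11), and in iPS cells the difference was 0.44.

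All 3 mismatch repair genes were called higher in iPS and ES cells, and Msh6 had the largest difference of the 64 genes. Msh6, a subunit of the sensor of base mismatches, read 7.53, 7.20 and 7.30 in fibroblasts, 7.53, 7.42 and 7.50 at day 1, 11.17, 11.33 and 11.36 in iPS cells and 11.47, 11.54 and 11.48 in ES cells. Fibroblast and day-1 arrays overlapped, and the pluripotent arrays lay far above both. The day-1 difference was 0.14 (adjusted p = 0.18), and the rise was 3.95 in iPS cells (15.4-fold, SE 0.09, adjusted p = 4.6e-13) and 4.15 in ES cells (17.8-fold, adjusted p = 1.7e-13). Exo1, the exonuclease that removes the mismatched strand and also resects breaks, behaved otherwise at day 1, reading 6.63, 5.98 and 6.39 in fibroblasts, 7.72, 7.80 and 7.63 at day 1, 9.49, 9.36 and 9.47 in iPS cells and 9.49, 9.45 and 9.39 in ES cells. It rose 2.61-fold at day 1 (adjusted p = 1.5e-06), 8.60-fold in iPS cells and 8.62-fold in ES cells. Msh3, partner in the sensor of insertion loops, had overlapping arrays at day 1, with 7.15, 7.09 and 7.02 in fibroblasts against 7.15, 7.11 and 7.25. It read 8.73, 8.67 and 8.80 in iPS cells and 9.20, 9.20 and 9.24 in ES cells, a rise of 3.13-fold and 4.38-fold.

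Nucleotide excision repair, which cuts out bulky damage such as that of ultraviolet light, had 1 gene of 5, Ercc8, called in a comparison with fibroblasts. That 20% called higher in iPS and in ES cells was near the 21.8% and 23.4% over all genes. Ercc8, which recognises polymerases stalled on damage, read 5.76, 5.52 and 5.41 in fibroblasts, 5.99, 6.01 and 5.98 at day 1, 7.08, 7.23 and 7.32 in iPS cells and 7.44, 7.44 and 7.35 in ES cells. It rose 3.13-fold in iPS cells and 3.60-fold in ES cells. Ercc1, a subunit of the incising nuclease, was lower by -0.40 in iPS and -0.57 in ES cells, and Ercc3, a helicase of the general factor TFIIH, by -0.53 and -0.67. These 4 differences had adjusted p-values of 0.0026 or less and stayed under 2-fold. Ercc5, the other incising nuclease, differed by -0.24 in iPS cells and by 0.23 in ES cells, and the iPS value turned to 0.01 after centring of the arrays. Ercc6, the partner of Ercc8 at stalled polymerases, read 8.20, 8.01 and 8.14 in fibroblasts, 8.12, 8.32 and 8.14 at day 1, 7.53, 7.40 and 7.49 in iPS cells and 8.71, 8.86 and 8.51 in ES cells. Its iPS arrays lay below the fibroblasts (-0.64) and its ES arrays above them (0.58), and neither difference reached the minimum.

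Of 6 base excision and single-strand break genes 4 were called higher and 1 lower in iPS cells, and 3 and 1 in ES cells. Parp1, the main sensor of strand breaks, read 8.09, 8.02 and 8.08 in fibroblasts, 8.91, 8.75 and 8.82 at day 1, 11.47, 11.38 and 11.46 in iPS cells and 11.49, 11.48 and 11.49 in ES cells. The pluripotent arrays were almost level with each other and well above the rest. The difference from fibroblasts was 0.77 at day 1, 3.37 in iPS cells (10.4-fold, SE 0.06, adjusted p = 1.3e-13) and 3.43 in ES cells (10.7-fold). Parp2, its partner, rose 2.93-fold in iPS cells and 4.11-fold in ES cells, from 8.49, 8.36 and 8.65 in fibroblasts and 8.87, 9.03 and 8.66 at day 1 to 10, 10.05 and 10.10 in iPS cells and 10.39, 10.60 and 10.63 in ES cells. Ung, the glycosylase that removes uracil, read 6.72, 6.17 and 6.44 in fibroblasts, 7.08, 7.21 and 7.01 at day 1, 9.60, 9.52 and 9.48 in iPS cells and 9.53, 9.48 and 9.27 in ES cells, a rise of 8.51-fold and 7.89-fold.

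Parp3, a family member that acts at double-strand breaks, went the opposite way. It read 10.70, 10.63 and 10.59 in fibroblasts, 9.77, 9.74 and 9.56 at day 1, 7.24, 7.19 and 7.43 in iPS cells and 6.49, 7.23 and 7.26 in ES cells. The day-1 arrays were all below the fibroblasts and above the iPS cells, with a difference of -0.95, and Parp3 fell 10.2-fold in iPS cells and 12.5-fold in ES cells (adjusted p = 9.6e-11). The scaffold gene Xrcc1 was just past the minimum in iPS cells, at 1.05, and just short in ES cells, at 0.96. Without the third fibroblast array its iPS difference was 0.98 and was no longer called. Polb, the gap-filling polymerase, was -0.67 at day 1 and 0.19 and 0.36 in iPS and ES cells.

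In non-homologous end joining both genes of the DNA-end ring were called higher and the ligase scaffold was not called. Xrcc5 (Ku80) read 8.51, 8.19 and 8.42 in fibroblasts, 8.57, 8.45 and 8.54 at day 1, 10.91, 10.91 and 10.96 in iPS cells and 11.09, 11.11 and 11.24 in ES cells. Xrcc6 (Ku70) read 7.06, 7.08 and 7.16 in fibroblasts, 7.72, 7.67 and 7.69 at day 1, 9.51, 9.41 and 9.46 in iPS cells and 9.55, 9.62 and 9.60 in ES cells. Xrcc5 rose 5.86-fold in iPS cells and 6.84-fold in ES cells, and Xrcc6 5.14-fold and 5.63-fold. At day 1 the Xrcc5 arrays overlapped the fibroblasts (0.14), and the Xrcc6 arrays did not (0.60). Xrcc4, the scaffold of the ligase, differed by 0.28 in iPS and 0.16 in ES cells. Its arrays read 7.33, 7.55 and 7.81 in fibroblasts, 7.07, 7.09 and 7.05 at day 1, 7.83, 7.71 and 8.0 in iPS cells and 7.59, 7.82 and 7.75 in ES cells.

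The 5 translesion and alternative polymerase genes had mixed courses. Polq, the polymerase of alternative end joining, read 6.5, 6.19 and 6.02 in fibroblasts, 6.89, 7.12 and 6.96 at day 1, 7.32, 7.36 and 7.47 in iPS cells and 8.06, 8.19 and 8.01 in ES cells. It rose 2.21-fold in iPS cells and 3.60-fold in ES cells. Poli, a polymerase of low fidelity, rose 2.30-fold and 2.74-fold, from 7.42, 7.72 and 7.63 in fibroblasts and 7.51, 7.22 and 7.34 at day 1 to 8.88, 8.70 and 8.79 in iPS cells and 8.98, 9.01 and 9.14 in ES cells. Both of these genes were thus highest in ES cells.

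Polk, which bypasses bulky adducts, was the one gene of this set called lower than fibroblasts in iPS cells. It read 9.28, 9.28 and 9.42 in fibroblasts, 8.88, 8.93 and 8.86 at day 1, 7.72, 7.60 and 7.83 in iPS cells and 8.36, 8.50 and 8.63 in ES cells. The fall was 3.05-fold in iPS cells (adjusted p = 6.4e-10), and in ES cells the difference was -0.83, under the minimum. Polh, the polymerase missing in the variant form of xeroderma pigmentosum, read 8.48, 8.26 and 8.29 in fibroblasts, 9.13, 9.20 and 9.21 at day 1, 8.48, 8.52 and 8.61 in iPS cells and 7.30, 7.68 and 7.21 in ES cells. It was highest at day 1 (0.83), near the fibroblast level in iPS cells (0.19) and lowest in ES cells (-0.95). Rad18, the ligase that calls translesion polymerases to stalled forks, was also highest at day 1, with 10.23, 10.15 and 10.16 against 9.57, 9.33 and 9.49 in fibroblasts. In iPS cells it read 9.03, 9.20 and 9.18, all below the fibroblasts by a difference under 2-fold (-0.33, adjusted p = 0.0012), and in ES cells 9.65, 9.68 and 9.58. Between day-1 and iPS cells it fell 2.06-fold (adjusted p = 2.5e-08). That call was lost after quantile normalization (-0.88), after centring of the arrays (-0.79) and without the first iPS array (-0.99).

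The PARP genes outside strand-break repair made up 6 of the 8 genes called lower in iPS cells among the 64. Of 7 genes 6 were called lower in iPS cells, 6 in ES cells and 3 at day 1, beside 29.6%, 32.1% and 4.33% of all genes. Parp14, a mono-ADP-ribosyl transferase known as an interferon-stimulated gene, read 8.82, 9.11 and 9.22 in fibroblasts, 6.19, 6.0 and 5.97 at day 1, 6.04, 5.60 and 5.95 in iPS cells and 6.28, 6.99 and 6.67 in ES cells. The drop was present at day 1, where it fell 7.96-fold (-2.99, SE 0.17, adjusted p = 2.1e-08), and it was 9.11-fold in iPS cells and 5.28-fold in ES cells. Parp9, which forms a complex with an E3 ligase in the interferon response, read 9.52, 9.76 and 9.76 in fibroblasts, 7.34, 6.96 and 7.17 at day 1, 7.41, 7.35 and 7.12 in iPS cells and 7.01, 7.63 and 7.28 in ES cells. It fell 5.73-fold at day 1, 5.23-fold in iPS cells and 5.18-fold in ES cells, so that the day-1, iPS and ES arrays overlapped. Parp12, an interferon-stimulated member with antiviral activity, fell in steps: 10.59, 10.53 and 10.64 in fibroblasts, 9.22, 8.76 and 8.93 at day 1, 7.26, 7.15 and 6.93 in iPS cells and 7.78, 8.51 and 8.03 in ES cells. Its fall was 3.07-fold at day 1 (adjusted p = 3.4e-06), 11.1-fold in iPS cells and 5.58-fold in ES cells.

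A list of 14 other interferon-response genes was also lower in day-1, iPS and ES cells than in fibroblasts. Of the 14, 13 were called lower at day 1 and in iPS cells and 12 in ES cells. Over all genes 4.33%, 29.6% and 32.1% were called lower. Their mean log2 level was 9.66 to 9.96 on the fibroblast arrays, 6.44 to 6.57 at day 1, 6.16 to 6.30 in iPS cells and 6.01 to 6.71 in ES cells. The second ES array had the highest level of this list among ES arrays, and also the highest value of Parp9, Parp12 and Parp14. It was also highest among them for the fibroblast or feeder markers, with a mean log2 level of 8.01 against 7.65 and 7.66, and for Parp8. The part of these lists in the PARP values was not tested.

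Parp8 and Parp6, which are not known as interferon genes, were called lower in iPS and ES cells but not at day 1. Parp8 read 10.03, 10.13 and 10.11 in fibroblasts, 9.72, 9.65 and 9.60 at day 1, 7.03, 7.07 and 6.96 in iPS cells and 5.99, 6.47 and 5.62 in ES cells. At day 1 the difference was -0.43, and it fell 8.42-fold in iPS and 16.8-fold in ES cells (adjusted p = 1.8e-11), the largest fall of the 64 genes. Parp6 fell 2.48-fold in iPS cells and 2.37-fold in ES cells, and Parp11 fell 2.74-fold and 2.26-fold. Parp11, unlike Parp6 and Parp8, was near the minimum at day 1, at -0.92 (adjusted p = 8.4e-06), with no overlap with the fibroblasts. The ES calls of Parp6 and Parp11 were lost after quantile normalization, at -0.91 and -0.87, and after centring, at -0.90 and -0.83. Parp16, an enzyme of the endoplasmic reticulum membrane, was the exception, 0.79 higher in iPS cells and 0.97 in ES cells without reaching the minimum. Over the whole PARP family of 10 genes, Parp1 and Parp2 included, 2 were called higher and 7 lower in iPS cells, and the same numbers in ES cells.

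**Figure D3:**
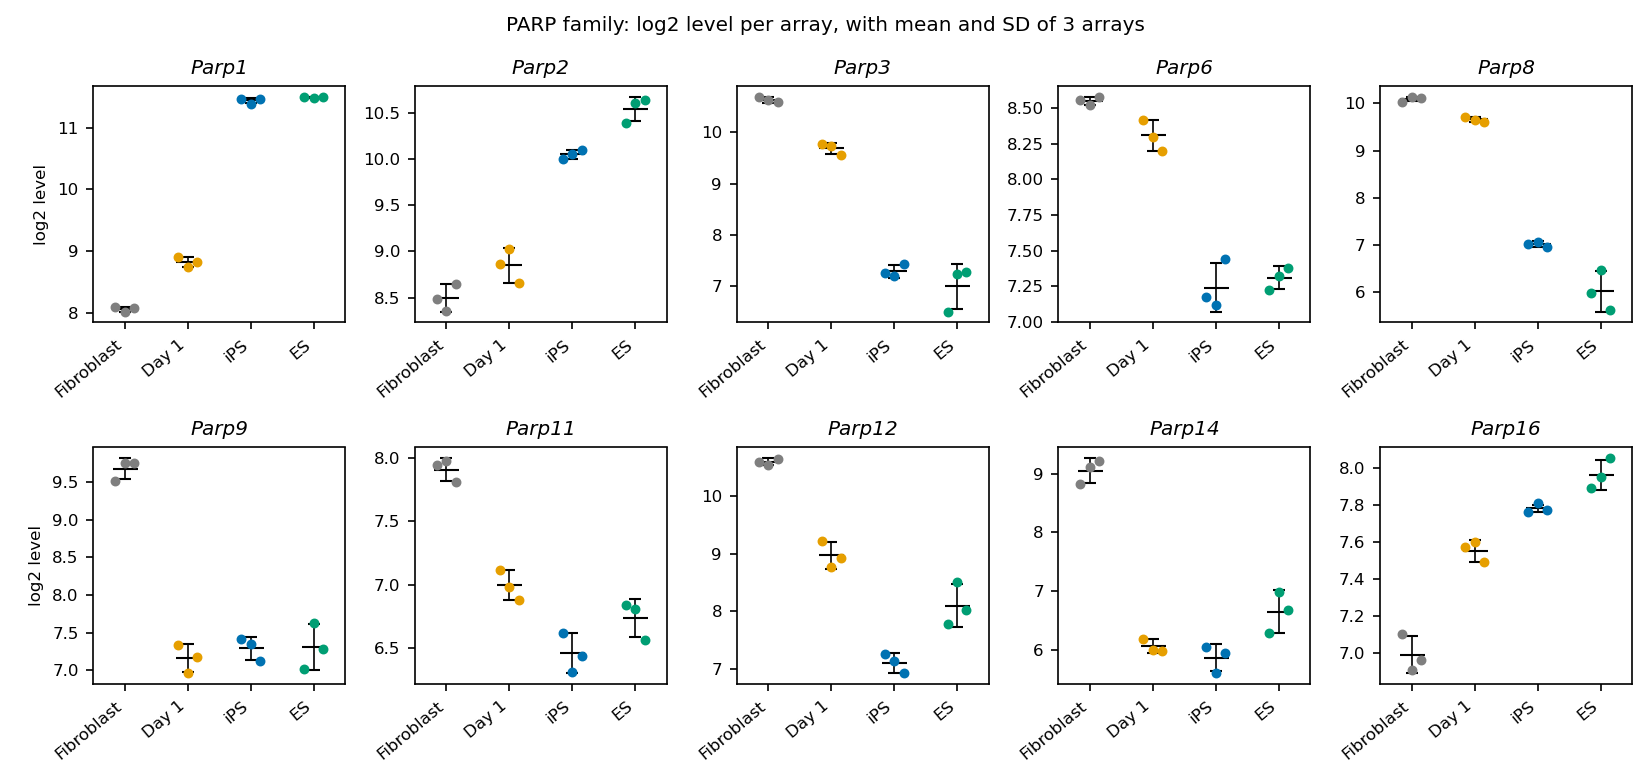
Log2 intensity (vertical axis, own scale in each panel) of the 10 PARP genes on the 12 arrays; points are arrays, and bars are the mean and SD of 3 arrays. Parp9 and Parp14 drop at day 1, Parp3, Parp8 and Parp12 drop further in iPS cells, and Parp1 rises.

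Of the 4 genes named alike but assigned to none of the repair roles, Ercc6l is a helicase of mitotic chromosome threads. Ercc6l rose 2.35-fold at day 1 (adjusted p = 4.4e-06), 4.53-fold in iPS cells and 4.80-fold in ES cells. It read 5.70, 5.72 and 5.12 in fibroblasts, 6.70, 6.71 and 6.82 at day 1, 7.64, 7.70 and 7.75 in iPS cells and 7.73, 7.83 and 7.76 in ES cells. Rad21, a subunit of the cohesin ring that holds sister chromatids, rose 3.00-fold and 4.16-fold in iPS and ES cells, from 9.71, 9.88 and 9.69 in fibroblasts and 10.36, 10.39 and 10.48 at day 1 to 11.33, 11.37 and 11.32 in iPS cells and 11.78, 11.91 and 11.76 in ES cells. Ercc6l2 rose 2.14-fold in ES cells, where it read 8.58, 8.75 and 8.75 against 7.53, 7.60 and 7.66 in fibroblasts, and in iPS cells it was 0.65 higher. Brip1os, an antisense transcript of Brip1, was lower by -0.58 and -0.52, under the minimum.

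The 6 genes called higher at day 1 were Fancb, Exo1, Eme1, Chek1, Ercc6l and Fancd2, and the 3 called lower were Parp14, Parp9 and Parp12. Of the 6, Fancb alone passed limma's test against a 2-fold minimum (treat), in which the others had adjusted p-values of 0.14 or more. Genes of replication and mitosis were also higher then. Of 26 S phase genes 19 were called higher at day 1, 22 in iPS cells and 21 in ES cells, with median differences of 1.16, 2.45 and 2.42. Of 21 G2 and mitosis genes 20, 18 and 19 were called, with medians of 1.39, 1.89 and 2.22. Over all genes 3.46%, 21.8% and 23.4% were called higher. The mean log2 level of the S phase list was 7.86 to 8.16 on the fibroblast arrays, 9.10 to 9.11 at day 1, 10.23 to 10.27 in iPS cells and 10.31 to 10.34 in ES cells. The repair genes without the PARP family had means of 7.23 to 7.39, 7.75 to 7.77, 8.66 to 8.75 and 8.87 to 8.95 in the same groups. Both lists thus had the same order of groups, and the part of cell division in the repair genes was not tested. The second fibroblast array was lowest of its group in 34 of the 64 genes, beside 37.4% of all genes. So were the second iPS array in 39, beside 48% of all genes, and the first ES array in 35, beside 36.4%. The number of day-1 genes called higher was 8 when the second or the third day-1 array, or the first or the third fibroblast array, was left out.

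Few repair genes, like few genes of the whole table, differed by 2-fold or more between iPS and ES cells. Only 1 was called higher in iPS cells, beside 4.44% of all genes, and 2 were called lower, beside 2.45%. The 95% interval of the difference lay within 2-fold for 56 of the 64 (87.5%), beside 86.9% of all genes, and it reached past 2-fold for Brca2, Ercc6, Palb2, Parp12, Parp14, Parp8, Polh and Rad9b. Polh was 1.14 higher in iPS cells (2.21-fold, SE 0.11, adjusted p = 2.3e-06), with no overlap of arrays. Rad9b was 3.30-fold lower in iPS cells (-1.72, SE 0.08, adjusted p = 9.4e-09), and Ercc6 was 2.33-fold lower (-1.22, SE 0.09, adjusted p = 4.2e-07). These are a translesion polymerase, a clamp subunit and a factor of transcription-coupled repair, and of the 3 Rad9b alone passed limma's test against a 2-fold minimum (treat).

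Short of the minimum lay Parp8, at 0.99, and Parp12, at -0.99. Without the second ES array Parp8 was at 1.22 and was called, and Parp12 was at -0.79. Without the first ES array Parp12 was at -1.16 and was called. Of the 64 genes 46 (71.9%) had a lower mean in iPS than in ES cells, beside 48.7% of all genes, and the median was -0.19 beside 0.01 over all genes. Among the kinases and recombination genes Brca2 was at -0.83 (adjusted p = 4.6e-05), Palb2 at -0.73, Atm at -0.58, Atr at -0.57 and Blm at -0.57. Rad54b and Chek1 were the other way, at 0.37 and 0.33. Brca1 (-0.10, adjusted p = 0.38) and Msh6 (-0.21, adjusted p = 0.059) did not pass. ES cells had the highest mean of the 4 groups for 37 of the genes, iPS cells for 12, fibroblasts for 10 and day-1 cells for 5. The matching shares over all genes were not counted.

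**Figure D4:**
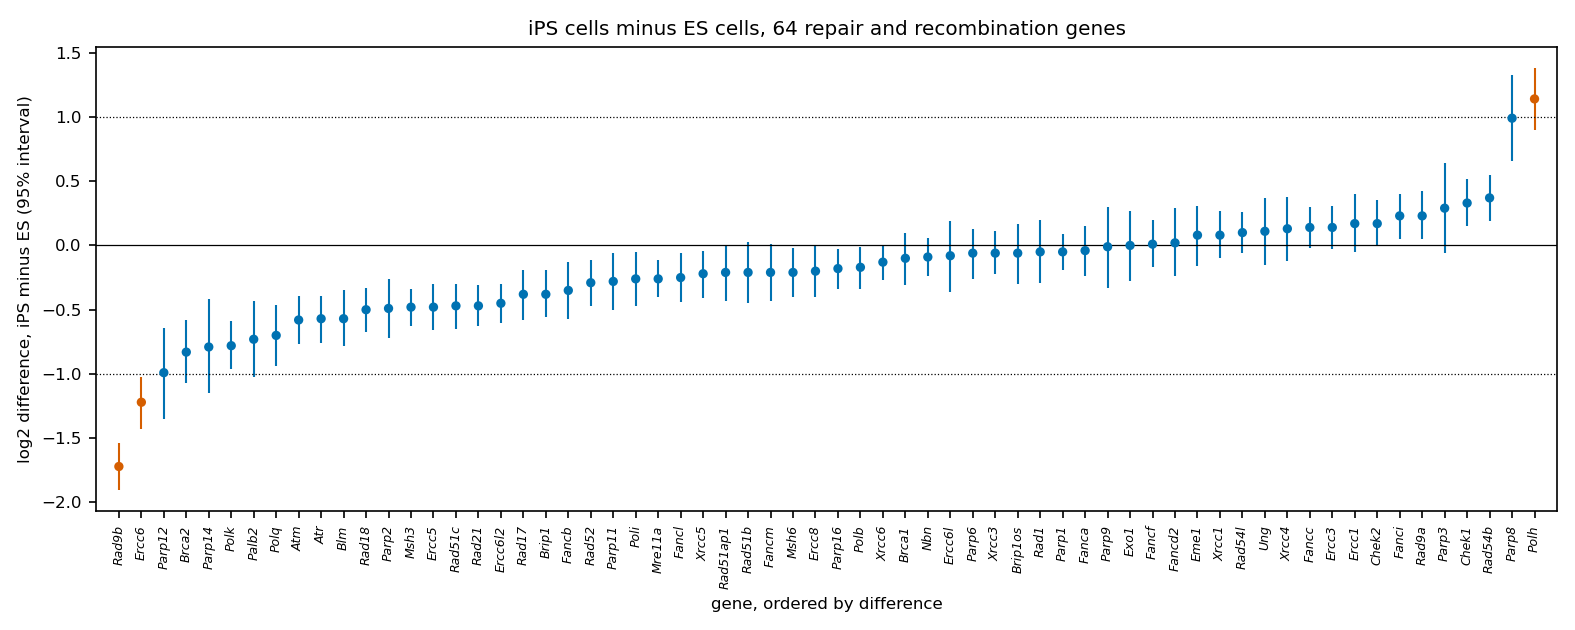
Difference between iPS and ES cells (vertical axis, log2 scale, positive where iPS cells are higher) for the 64 repair genes, ordered by difference, with 95% intervals from the fit over 12 arrays; dotted lines mark 2-fold, and called genes are orange. Polh lies above the upper line, and Ercc6 and Rad9b below the lower one.

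Repair genes outside the symbol rule were counted in the same way. Of 95 such genes listed, 55 were in the table: 35 were called higher and 4 lower than fibroblasts in iPS cells, and 37 and 3 in ES cells. The shares called over all genes were 21.8% higher and 29.6% lower in iPS cells, and 23.4% and 32.1% in ES cells. Rif1, which steers breaks away from resection, rose by 4.13 in iPS cells and 4.70 in ES cells on the log2 scale. In the same checkpoint list Wee1, a kinase that delays mitosis, rose by 3.03 and 3.15, and the fork protection pair Timeless and Tipin rose by 2.90 and 2.94 and by 2.81 and 3.51. Lig1, the replicative ligase, rose by 3.37 and 3.02, and Dna2, a resection nuclease, by 3.30 and 2.92. Bard1, the obligate partner of Brca1, rose by 2.67 and 2.61, and Rpa2, a subunit of the single-strand binding protein, by 2.83 and 2.89. Apex1 and Fen1, an endonuclease pair of base excision repair, rose by 2.20 and 2.01 and by 1.93 and 2.23. The genes that fell in both were Xpa, the damage verifier of nucleotide excision repair (-1.34 and -1.27), Polm, an end-joining polymerase (-1.22 and -1.31), and Mpg, a glycosylase for alkylated bases (-1.05 and -1.13). Alkbh3, which reverses alkylation, fell in iPS cells (-1.29). Mpg and Alkbh3 were named after their values were seen, to complete the count of falls. At day 1, 5 were called higher: Usp1 (1.36), which takes ubiquitin off Fancd2, Gen1 (1.27), Lig1 (1.14), Dna2 (1.02) and Neil3 (1.02). Between iPS and ES cells Gen1, a nuclease of crossed strands (-1.10), and Rev1, a translesion polymerase (-1.09), were called, both lower in iPS cells.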

How the data were processed

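Log2 intensities per probe set were used as the authors deposited them; its scale is unlabelled, and log2 was inferred from the range of 2.43 to 13.64. Summarisation, normalization and any filter are not given in the sources used here. A filter on variation would raise the share of called genes. Array medians lay between 7.89 and 8.29. Of 10360 probe sets 9542 had 1 symbol in the platform annotation, 344 several and 474 none; only the first kind was tested, with the brighter probe set kept for 3 genes. Limma 3.58.1 in R 4.3.3 fitted 4 group means over 12 arrays, with Benjamini-Hochberg adjustment over 9539 genes in each of 5 comparisons; the code was tested on simulated data. Members, roles, lists and alternatives were chosen with earlier results of these data known. Named in full were up to 4 members per role by largest difference, fixed well-known genes, calls against their role, calls between iPS and ES cells, members near the minimum and genes among the largest differences of each other list. Probes differ in response, so levels of different genes were not compared. Precision is limited by 3 arrays per group.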

Additional observations from a re-analysis of the deposited data

How the results depend on the processing

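Of 139 calls of single genes, 122 could be run under every alternative, and 114 of these held under all but limma's test against a 2-fold minimum (treat). The other 17 belong to members removed with the dimmest genes; they held under the remaining alternatives except treat. Of the 139, 25 were lost under treat, and 0 changed direction where run. The counts of repair genes called moved by over 1.5 times as follows. With no fold minimum 38 were higher and 12 lower at day 1, 16 were lower in iPS cells and 14 in ES cells than in fibroblasts, 6 were higher and 28 lower in iPS than in ES cells, and 44 were higher and 14 lower in iPS than in day-1 cells. By adjusted p alone, in either direction, 50 of the 64 passed at day 1, beside 5449 of all 9539 genes. In iPS and ES cells against fibroblasts 63 and 62 passed, beside 8985 and 9050. Between iPS and ES cells 34 passed, beside 5502, and between iPS and day-1 cells 58, beside 8851. Under treat 1 was higher at day 1, 0 higher and 1 lower in iPS than in ES cells, and 4 lower in iPS than in day-1 cells. That last count was also 4 after quantile normalization and 4 after centring the arrays. Between iPS and ES cells 2 were higher after quantile normalization and 2 with array weights, and 1 was lower with the lowest 25% of genes left out, which removed 6 members, Rad9b among them. Leaving out 1 array at a time gave 1 to 2 higher, the 2 without the third iPS or the second ES array, and 2 to 3 lower.

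Ercc5 in iPS cells against fibroblasts turned to 0.01 after centring. Fanca and Fancc in iPS against day-1 cells fell short, at 0.98 and 1.00, without the third day-1 array. After quantile normalization and centring 39 and 40 members were called higher in iPS cells than in fibroblasts, beside 38 as deposited. In ES cells 43 and 43 were, beside 39, and in iPS against day-1 cells 38 and 38, beside 28. The shares of all genes rose too, from 21.8% to 26.6% and 29%, 23.4% to 29.3% and 33.8%, and 17.6% to 22.9% and 24.5%. Calls of genes just short of the minimum can thus depend on scaling. The median difference of all genes between iPS cells and fibroblasts moved from -0.35 to -0.18 after quantile normalization and to -0.10 after centring, and the share of higher calls over all genes from 42.4% to 52.0% and 55.9%. It moved from 42.2% to 53.0% and 58.7% for ES cells against fibroblasts, from 39.8% to 51.2% and 55.3% for iPS against day-1 cells, and from 64.4% to 57.6% and 51.4% for iPS against ES cells. With the replicate block 6 members were higher at day 1 and 38 in iPS cells, and no count of called members changed. Samples with the same number correlated at -0.21 to 0.06 in their deviations over 18 pairs, none over 0.1, and 13 of 36 matched best with their own number, so the numbers do not pair them. The causes of these changes were not tested.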
